A study of Mus musculus with 2 samples.

Results

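Antigen presentation genes were followed across the cell classes of mouse cortex: H2-K1, H2-D1, B2m, Tap1 and Tapbp of the class I pathway, and Cd74, H2-Aa, H2-Ab1, H2-Eb1 and Ciita of the class II pathway. They were taken by symbol from the deposited gene tables, where 10 of 32285 genes matched. The study compared cortex of male mice aged 4 months, either Fam69c wildtype or Fam69c knockout, pooled by genotype, dissociated, stained with the dead-cell dye 7-AAD and sorted. Each genotype gave 1 single-cell library (10x Genomics, 3′ kit of version v3.1). The labels give the number of mice without saying whether it is per genotype, and name no strain and no design of the knockout allele.

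Class I molecules consist of a heavy chain, encoded in the mouse by genes such as H2-K1 and H2-D1, and the small subunit beta-2 microglobulin, encoded by B2m. They show peptides from inside the cell to CD8 T cells, after the transporter subunit Tap1 has helped bring the peptides into the endoplasmic reticulum and tapasin, encoded by Tapbp, has helped to load them. Class II molecules are pairs of an alpha and a beta chain (H2-Aa with H2-Ab1, and H2-Eb1 as a further beta chain), guided by the invariant chain Cd74 and switched on by the coactivator Ciita, and show peptides from outside to CD4 T cells. Dendritic cells, B cells and macrophages are the usual carriers of class II, while most nucleated cells carry some class I and neurons and glia of the healthy brain carry little.

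There were 7150 barcodes in the wildtype and 9182 in the knockout library, with totals of 57166105 and 75473717 UMIs (unique molecular identifiers, each counting 1 captured transcript 3′ end). After filtering, 4940 and 7032 cells remained, with median depths of 8580 and 8449 UMIs. The libraries shared 17 barcodes, of which 10 were kept in both. Cells were placed in classes by marker genes that include none of the 10 genes. In all, 8 classes had at least 50 cells in each library and were compared: astrocyte-like (2366 wildtype and 4189 knockout cells), oligodendrocyte-like (562 and 734), microglia-like (224 and 281), neuroblast or progenitor-like (190 and 362), endothelial-like (157 and 249), B cell-like (70 and 74), T cell-like (58 and 85) and fibroblast-like (50 and 113). Smaller classes are given as levels. The gates left 1036 wildtype cells (21.0%) and 553 knockout cells (7.86%) without a class, with median depths of 1447.5 and 4516 UMIs. In astrocyte-like cells the transcript of the targeted gene, listed as Dipk1c, was 59.7 CPM in the wildtype and 33.7 CPM in the knockout library. The sources used here do not say which part of the gene was removed, so this 3′ count does not check the labels.

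Levels are in CPM, the UMIs of a gene per 1000000 UMIs of all genes in that class and library. They are not scaled by gene length, because each transcript gives 1 UMI near its 3′ end. With 1 library per genotype no test between genotypes was possible, and genotype cannot be told apart from pool. Every interval is an exact 95% interval for counting error alone. A ratio is knockout over wildtype, and a gene counts as past 1.5-fold when its ratio is at least that far from 1 in either direction.

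Promoter stretches are shown for comparing H2-K1 with H2-D1, whose balance differed between cell classes, and for the class II chain genes, which were high in the same antigen-presenting classes. RefSeq promoters (build GRCm38.p6, from 250 bases before to 50 after the start) were used for 7 of the 10 genes. Cd74 was left out by choice, and no promoter was found for H2-Ab1 and Ciita. Motifs were chosen after these promoters had been read and were searched on both strands. They were GGGATTCCC (part of a kappa-B element), AANNGAAA (an interferon regulatory factor core), CTNGCAAC (part of the X box of class II genes), TGACG (the core of a cAMP response element) and ATTGG (the core of the Y box), in capitals below.
H2-K1, chr17:34000430-34000458, minus strand: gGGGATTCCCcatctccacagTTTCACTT
H2-D1, chr17:35262923-35262951, plus strand: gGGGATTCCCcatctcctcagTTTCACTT
B2m, chr2:122147550-122147638, plus strand: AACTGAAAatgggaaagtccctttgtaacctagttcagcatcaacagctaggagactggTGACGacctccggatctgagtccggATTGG
H2-Aa, chr17:34287867-34287907, minus strand: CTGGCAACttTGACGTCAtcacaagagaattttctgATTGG
H2-Eb1, chr17:34305773-34305836, plus strand: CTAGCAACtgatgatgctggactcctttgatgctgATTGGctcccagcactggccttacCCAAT

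The H2-K1 and H2-D1 stretches hold the kappa-B part and the interferon regulatory factor core and match at 28 of 29 bases. Over the whole windows, 206 of 228 aligned positions (90.4%) were identical. The kappa-B part was in 100 of 27025 promoters (0.370%), 4 of them H2 genes, namely H2-K1, H2-D1, H2-Q6 and H2-Q7. The interferon regulatory factor core was in 24.2% of promoters, the cAMP response core in 21.0% and the Y box core in 37.9%, so these short motifs are common. H2-Aa and H2-Eb1 carried the X box part ahead of a Y box core, and the X box part was in 3.55% of promoters; the H2-D1 window held it as well. In the Tap1 window the cAMP response core and a Y box core were found, and in the Tapbp window the Y box core was found.

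The members lie on chromosome 17 in build GRCm38, apart from B2m (chromosome 2), Cd74 (chromosome 18) and Ciita (chromosome 16). H2-K1 (chr17:33996017-34000347, minus strand), H2-D1 (chr17:35262730-35267499, plus strand) and H2-Aa (chr17:34282744-34287823, minus strand) are protein-coding genes with no overlapping gene in GENCODE M21. Tap1 (chr17:34187553-34197225, plus strand) overlaps Psmb9 on the other strand, and B2m (chr2:122147686-122153083, plus strand) overlaps Patl2 on the other strand. Class I heavy chain genes are near-identical copies in places, which could split reads between them. None of the 401 possible 100-base windows in the last 500 bases of the longest H2-K1 or H2-D1 transcript occurred in a transcript of another gene. How reads from an allele that differs from the reference were assigned was not tested.

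Class I transcripts were high in lymphocytes and monocytes and low in neural cells. The class I sum (H2-K1, H2-D1 and B2m) was 7475 CPM in wildtype and 7039 CPM in knockout T cell-like cells. NK cell-like cells were close, at 7444 and 7541 CPM (17 and 20 cells). Monocyte-like cells held 6160 and 5029 CPM (11 and 71 cells), and B cell-like cells 4588 and 4554 CPM. Endothelial-like cells held 2739 and 2379 CPM and microglia-like cells 2212 and 2124 CPM. Fibroblast-like cells held 898 and 964 CPM. Astrocyte-like cells held 160 and 175 CPM, oligodendrocyte-like cells 116 and 91.1 CPM and neuroblast or progenitor-like cells 79.6 and 44.4 CPM. The order of these classes was the same in both libraries except that T cell-like and NK cell-like cells changed places.

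**Figure D1:**
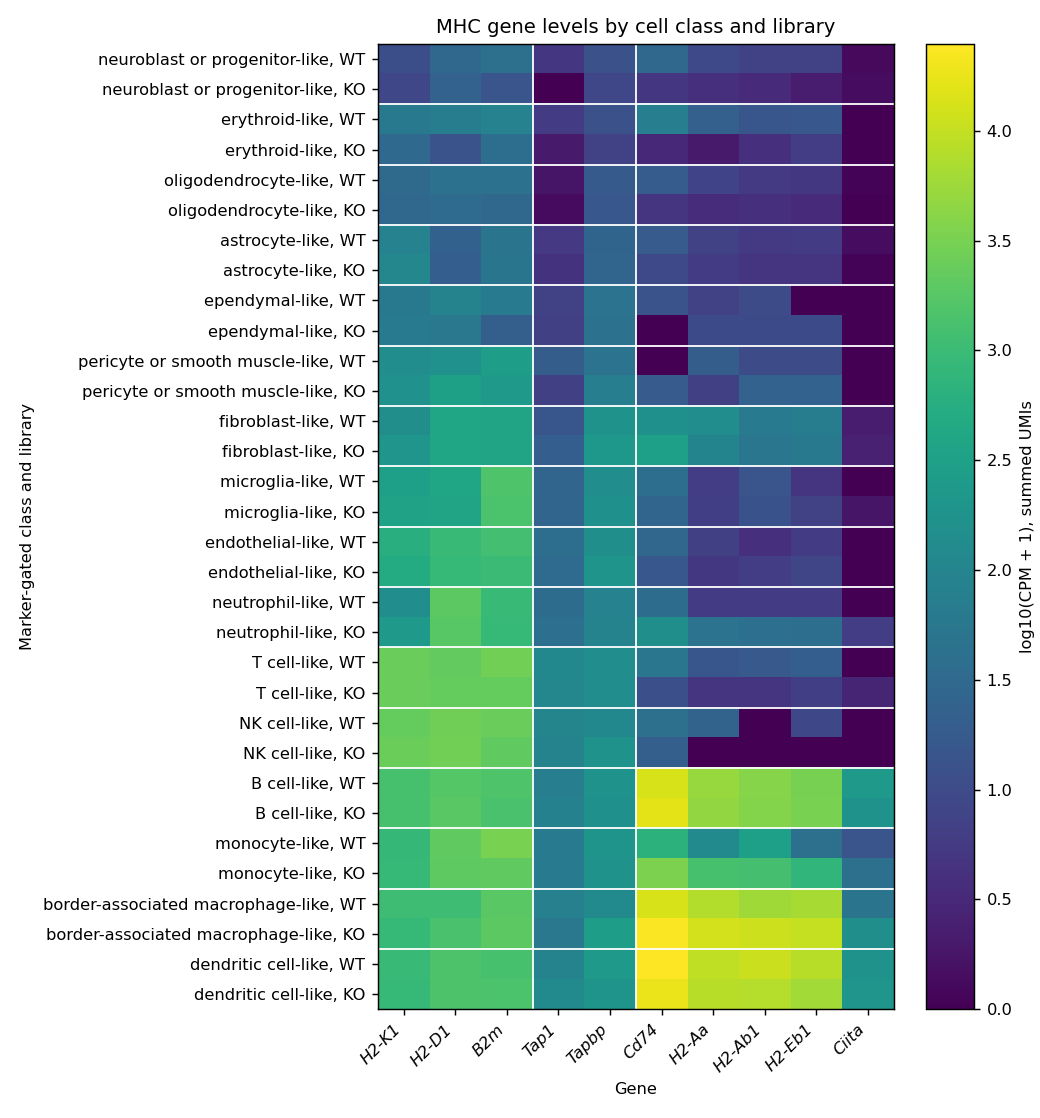
Levels of the 10 genes as log10(CPM + 1) of summed UMIs, with 1 row per marker-gated class and library (WT wildtype, KO knockout) and 1 column per gene; oligodendrocyte precursor-like and neuron-like cells, at most 16 per library, are not drawn. Class I genes are bright in lymphocyte, monocyte, endothelial and microglia rows, and class II genes are bright in B cell, dendritic cell, border-associated macrophage and knockout monocyte rows.

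Astrocyte-like cells stood apart in the balance of the heavy chains. They held H2-K1 at 88.6 CPM (95% interval 84.9 to 92.5) in the wildtype and 106 CPM (102.6 to 109.4) in the knockout library, against H2-D1 at 22.2 and 19.3 CPM. H2-K1 in oligodendrocyte-like cells was 32.0 and 28.5 CPM and in neuroblast or progenitor-like cells 10.6 and 7.67 CPM. When each cell was thinned to 2000 UMIs, 16.4% (14.8 to 18.1) of wildtype and 18.2% (17.0 to 19.4) of knockout astrocyte-like cells had an H2-K1 UMI, against 7.35% and 6.07% of oligodendrocyte-like and 2.30% and 1.5% of neuroblast or progenitor-like cells. Before thinning, at median depths of 10999 and 8794 UMIs, 49.5% and 52.0% of astrocyte-like cells had one. H2-K1 was therefore above the level of the other neural classes in both libraries.

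The ratio of H2-D1 to H2-K1 UMIs compares 2 genes within a class and is read only across classes, since the capture of each gene may differ. It was 0.250 (0.227 to 0.275) in wildtype and 0.182 (0.168 to 0.198) in knockout astrocyte-like cells. In T cell-like cells it was 0.889 and 0.898, in B cell-like cells 1.31 and 1.39, in microglia-like cells 1.29 and 1.07, in oligodendrocyte-like cells 1.32 and 1.16, and in endothelial-like cells 1.55 and 1.74. Fibroblast-like cells, at 2.63 and 2.10, and monocyte-like cells, at 2.54 and 2.31, held more H2-D1. Neutrophil-like cells were at the other end, with 13.8 (9.43 to 20.8) in 34 wildtype cells and 7.55 (6.46 to 8.87) in 107 knockout cells. Neutrophil-like cells had H2-D1 at 1968 and 1817 CPM beside H2-K1 at 143 and 241 CPM. Among the classes drawn, the intervals of astrocyte-like and neutrophil-like cells overlapped no other class in either library.

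**Figure D2:**
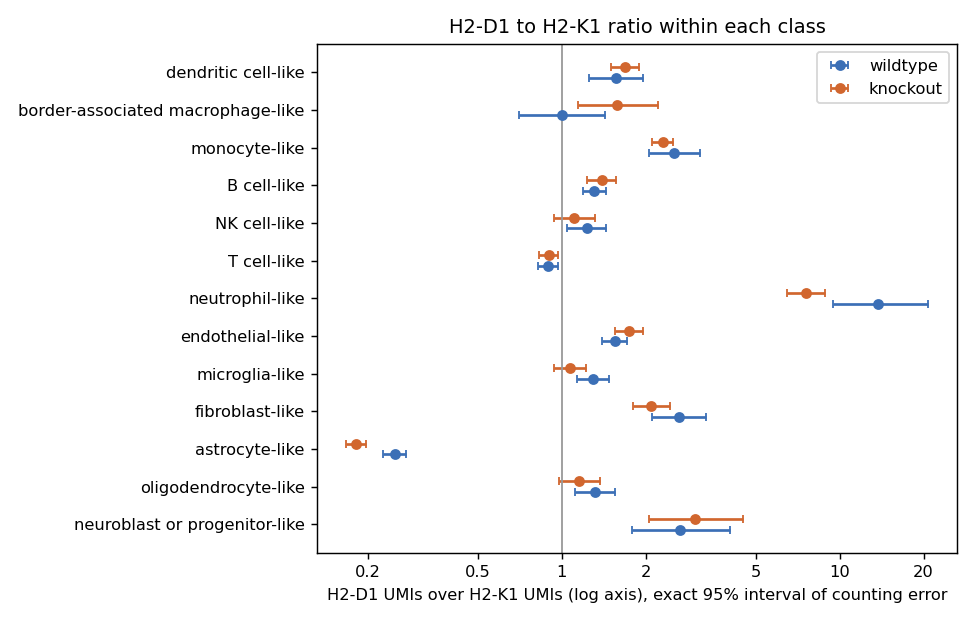
H2-D1 UMIs divided by H2-K1 UMIs on a log axis for each class with at least 100 such UMIs in each library, with exact 95% intervals of counting error, wildtype in blue and knockout in orange. Astrocyte-like cells sit at 0.250 and 0.182 and neutrophil-like cells at 13.8 and 7.55, with the other classes between 0.889 and 3.00.

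B2m differed from the heavy chains in microglia-like cells. B2m UMIs were 2.25 times the H2-K1 and H2-D1 UMIs together in the wildtype and 2.03 times in the knockout library there, against 0.442 and 0.398 in astrocyte-like, 0.780 and 0.722 in endothelial-like, 0.632 and 0.487 in T cell-like and 0.496 and 0.433 in B cell-like cells. B2m was 1532 and 1423 CPM in microglia-like cells. The peptide transport and loading genes were at lower levels. Tapbp was 25.2 and 26.0 CPM in astrocyte-like cells, 144 and 159 CPM in microglia-like cells, 156 and 189 CPM in endothelial-like cells, 141 and 144 CPM in T cell-like cells and 175 and 224 CPM in fibroblast-like cells. Tap1 was 111 and 109 CPM in T cell-like cells, 38.2 and 34.0 CPM in endothelial-like cells, 26.3 and 26.4 CPM in microglia-like cells and 4.27 and 3.47 CPM in astrocyte-like cells.

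Class II levels were highest in professional antigen-presenting cells. Cells without a class held 41.8% of the class II UMIs of kept wildtype cells and 34.8% of those of kept knockout cells. The class II sum (Cd74, H2-Aa, H2-Ab1 and H2-Eb1) was 54082 CPM in 6 wildtype and 41352 CPM in 29 knockout dendritic cell-like cells. It was 33469 and 57813 CPM in border-associated macrophage-like cells, 10 in each library, and 25643 and 28127 CPM in B cell-like cells. No cluster was named as dendritic cells, border-associated macrophages or monocytes. The levels of these classes therefore rest on the marker gates alone, which were settled with member levels in view. Border-associated macrophage-like cells of both libraries together had medians of 3227 CPM of their own markers and 17495 CPM of microglia markers. Of the border-associated macrophage-like class II UMIs, 83.5% in the wildtype and 59.2% in the knockout library came from 3 cells, and without the 3 highest cells of each library the levels were 8878 and 47459 CPM. Every dendritic cell-like cell held at least 1000 CPM, as did 69 of 70 wildtype and 73 of 74 knockout B cell-like cells. Border-associated macrophage-like cells were split, with 6 of 10 and 7 of 10 at or above 1000 CPM and 3 cells without a class II UMI in each library. Ciita was 231 and 182 CPM in B cell-like cells and 171 and 192 CPM in dendritic cell-like cells, 47.9 and 155 CPM in border-associated macrophage-like cells (3 and 11 UMIs), and under 2 CPM in astrocyte-like, oligodendrocyte-like, microglia-like, endothelial-like and fibroblast-like cells.

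Microglia-like cells held little class II. Their class II sum was 60.8 CPM (48.3 to 75.6) in the wildtype and 49.0 CPM (37.7 to 62.7) in the knockout library. After thinning to 2000 UMIs, 10.5% (6.36 to 16.1) and 7.92% (4.60 to 12.5) of microglia-like cells had a class II UMI. Classes that should lack class II gave 3.70% and 4.06% (astrocyte-like), 3.48% and 2.82% (oligodendrocyte-like), 9.80% and 4.26% (erythroid-like) and 9.09% and 3.70% (T cell-like). Pericyte or smooth muscle-like cells gave 12.0% and 10.0%. The microglia-like intervals overlapped the erythroid-like (3.26 to 21.4 and 0.520 to 14.5) and T cell-like intervals in both libraries. The microglia-like shares were therefore not told apart from those of erythroid-like and T cell-like cells, of which there were few. The astrocyte-like and oligodendrocyte-like shares lay below the microglia-like intervals in both libraries. Before thinning, 22.3% and 19.2% of microglia-like cells had such a UMI, at median depths of 6705.5 and 5085 UMIs; for astrocyte-like cells it was 15.2% and 13.4% at 10999 and 8794 UMIs, and for erythroid-like cells 26.5% and 23.4%.

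Fibroblast-like cells, led by Mgp and Igfbp6, carried class II in a larger share of cells. The class II sum was 435 CPM in the wildtype and 508 CPM in the knockout library, and 30.2% (17.2 to 46.1) and 37.3% (28.2 to 47.0) of thinned cells had a class II UMI. In 7 of 50 wildtype and 22 of 113 knockout cells there were at least 10 class II UMIs. In those cells the median level of fibroblast markers was 21356 and 19656 CPM, and the medians of the border-associated macrophage, dendritic cell and B cell marker sums were 0 in both libraries. Border-associated macrophage markers were seen in 2 of 7 and 7 of 22 of them, and microglia markers in 7 of 7 and 21 of 22, at medians of 214 and 206 CPM, against 150 and 173 CPM in the other fibroblast-like cells. Monocyte markers were seen in all of them, at medians of 2350 and 921 CPM, against 1076 and 955 CPM in the others, and their part in the class II level was not tested. Ciita gave 1 UMI in the wildtype and 2 UMIs in the knockout fibroblast-like cells. The wildtype UMI was in a cell with at least 10 class II UMIs, and the 2 knockout UMIs were in cells with under 10. In the wildtype, 59.1% of the class II UMIs of the class came from 3 cells; without the 3 highest cells of each library the level was 189 and 408 CPM.

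**Figure D3:**
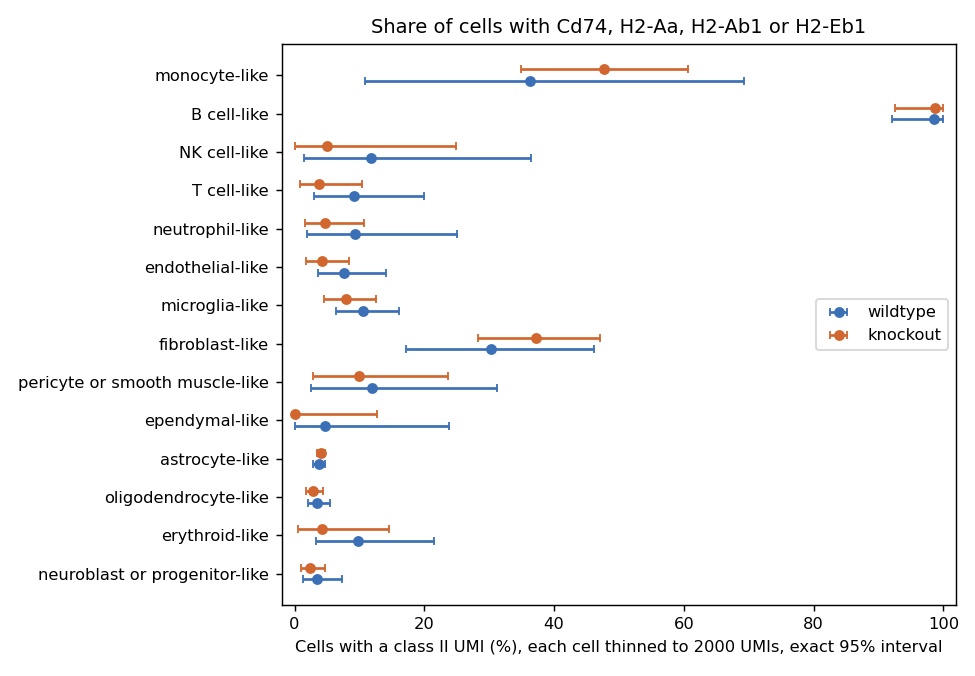
Percentage of cells with at least 1 UMI of Cd74, H2-Aa, H2-Ab1 or H2-Eb1 after each cell was thinned to 2000 UMIs, by class, with exact 95% intervals, wildtype in blue and knockout in orange; oligodendrocyte precursor-like cells and classes with under 10 cells deep enough in a library are not drawn. B cell-like cells are near 100%, monocyte-like and fibroblast-like cells are between 30.2% and 47.6%, and all other classes drawn are at or below 12.0%.

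Monocyte-like cells held class II in some cells. In the knockout library 24 of 71 were at or above 1000 CPM, and in the wildtype library 1 of 11. The class II sum was 1134 CPM in the wildtype and 6696 CPM in the knockout library. With 11 wildtype cells the libraries were not compared.

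Astrocyte-like cells of the knockout library held slightly more class I than those of the wildtype library, through H2-K1. H2-K1 had a ratio of 1.20 (1.13 to 1.26), while B2m had 1.02 (0.945 to 1.10) and H2-D1 0.871 (0.777 to 0.977). The class I sum had a ratio of 1.10 (1.05 to 1.14). Of the 10 genes, 9 had at least 50 UMIs over both libraries in this class, and 1, Cd74, was past 1.5-fold, lower in the knockout library. Of all genes measured, 12.0% were past it and 9.53% were past it and lower. Within 5 clusters of astrocyte-like cells, H2-K1 was 85.3 and 110 CPM, 95.5 and 111 CPM, 84.1 and 87.6 CPM, 48.5 and 59.9 CPM, and 123 and 125 CPM in the wildtype and knockout libraries. The knockout value was the higher one in all 5 clusters, with intervals that did not overlap in the first. The libraries filled these clusters differently, with 300 wildtype and 1502 knockout cells in the first and 932 and 523 in the third. The class I sum was lower in the knockout library in the last of them, at 308 and 255 CPM. With each cell weighed the same the class I ratio turned to below 1 (log2 -0.26), and with median of ratios scaling, which moved the median of all genes by 0.11 on the log2 scale, it was 0.25.

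H2-K1 levels were close in astrocyte-like cells with and without Gfap, which encodes the astrocyte intermediate filament. H2-K1 was 88.0 and 88.8 CPM in wildtype astrocyte-like cells with and without a Gfap UMI, and 106 CPM in both knockout groups. B2m was higher with a Gfap UMI, at 68.0 against 44.4 CPM in the wildtype and 57.5 against 48.1 CPM in the knockout library. Cells with Gfap were deeper, with medians of 14658 against 10203 UMIs and 10558 against 8401 UMIs, and the part of depth in the B2m difference was not tested.

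Class II transcripts in astrocyte-like, oligodendrocyte-like and neuroblast or progenitor-like cells were lower in the knockout library, as in T cell-like cells. The class II sum in astrocyte-like cells was 32.7 and 20.7 CPM (ratio 0.632, 0.571 to 0.70), in oligodendrocyte-like cells 33.5 and 11.4 CPM (0.339, 0.267 to 0.427) and in neuroblast or progenitor-like cells 49.6 and 10.6 CPM (0.213, 0.152 to 0.293). In T cell-like cells it was 101 and 23.7 CPM (0.234, 0.117 to 0.437). Erythroid-like cells (68 and 47) held 124 and 11.5 CPM, and barcodes that the filter removed held 146 and 44.9 CPM. Without the 3 cells with the most class II UMIs in each library, T cell-like cells held 24.3 and 17.3 CPM and erythroid-like cells 20.8 and 8.79 CPM. B cell-like and fibroblast-like cells had ratios above 1 (1.10 and 1.17). Of the 2366 wildtype and 4189 knockout astrocyte-like cells, 309 and 556 had 1 or 2 class II UMIs, and 51 and 7 had at least 3. At or above 1000 CPM there were 68 wildtype (2.87%) and 11 knockout (0.263%) astrocyte-like cells, with median depths of 1097 and 937 UMIs. In those cells the microglia markers had a median of 935 and 0 CPM and the neutrophil markers 917 and 531 CPM, while the monocyte, dendritic cell, border-associated macrophage and B cell markers had medians of 0. Their part in the class II difference was not tested. In oligodendrocyte-like cells 4 of 8 measured members were past 1.5-fold, all lower in the knockout library (Cd74 and the 3 class II chains), where 7.72% of all genes were past it and 5.33% were past it and lower. With clusters in place of marker gates the 3 chains turned to higher in the knockout library (log2 0.090 for H2-Aa, 0.16 for H2-Ab1 and 0.70 for H2-Eb1), and H2-Ab1 did so with a stricter gate (0.22). In neuroblast or progenitor-like cells 2 of 5 measured members were past it, B2m and Cd74, both lower, where 10.5% of all genes were past it and 8.76% past it and lower. Their B2m ratio turned to higher after thinning (log2 0.28) and their Cd74 ratio with clusters (1.75), as did their class II sum (1.99). The 3 cells with the most class II UMIs held 37.8% of the class II UMIs of wildtype oligodendrocyte-like cells and 71.3% of those of wildtype neuroblast or progenitor-like cells, and 52.6% of the latter's B2m UMIs came from 3 cells. The share of thinned cells with a class II UMI differed little between libraries (3.70% and 4.06% in astrocyte-like cells, 3.48% and 2.82% in oligodendrocyte-like cells). The hemoglobin share of UMIs, a sign of free RNA, was 0.392% and 0.161% in astrocyte-like cells and 0.252% and 0.102% in oligodendrocyte-like cells, and its part in the class II difference was not tested.

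Oligodendrocyte-like cells of the knockout library also held less class I, with a class I sum ratio of 0.785 (0.714 to 0.864). B2m was 41.8 and 29.8 CPM, H2-D1 42.2 and 32.9 CPM and H2-K1 32.0 and 28.5 CPM. The 84 wildtype and 113 knockout oligodendrocyte-like cells with a Klk6 UMI, which marks a mature subset, held less of each in both libraries. H2-K1 was 17.6 and 17.5 CPM with Klk6 and 35.6 and 31.0 CPM without. Cells with Klk6 were deeper, with medians of 19679 against 13574 UMIs and 15657 against 10943 UMIs, and the part of depth was not tested. The class I sum ratio was close to 1 with no filter on cells (log2 -0.092) and with doublets kept (log2 -0.081).

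Microglia-like cells showed no member past 1.5-fold among 6 measured, where 13.3% of all genes were. H2-K1 had a ratio of 1.14 (0.996 to 1.31), H2-D1 0.943 (0.830 to 1.07) and B2m 0.928 (0.871 to 0.989). High Ccl3 and Ccl4, at least 1000 CPM together, were found in 54 wildtype and 46 knockout cells. In them H2-K1 was 340 (281 to 407) and 367 CPM (293 to 454), against 281 (249 to 316) and 333 CPM (299 to 370) in the others. These intervals overlapped in both libraries. H2-D1 was 417 and 333 CPM against 372 and 368 CPM, and B2m was 1520 and 1491 CPM against 1537 and 1408 CPM. Cells with high Ccl3 and Ccl4 were deeper, with medians of 7584 against 6174.5 UMIs and 5676.5 against 4888 UMIs.

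With UMIs summed over cells, endothelial-like cells held less class I in the knockout library, with a class I sum ratio of 0.869 (0.821 to 0.919). Per cell the class I levels were close. The medians were 2088 CPM in wildtype and 2074 CPM in knockout cells, and the means 2317 and 2236.5 CPM. B2m was 1200 and 997 CPM and H2-K1 604 and 504 CPM, whereas H2-D1 was 935 and 878 CPM and Tapbp 156 and 189 CPM. None of the 5 measured members was past 1.5-fold, where 12.4% of all genes were. The median depth was 4097 and 2771 UMIs and the hemoglobin share 1.83% and 0.385%, whose part in the difference was not tested.

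In B cell-like cells Cd74 was 13403 CPM in the wildtype and 16104 CPM in the knockout library, a ratio of 1.20 (1.16 to 1.24). H2-Aa had a ratio of 0.941 (0.886 to 0.999), H2-Ab1 0.976 (0.911 to 1.04), H2-Eb1 1.06 (0.984 to 1.14) and Ciita 0.788 (0.576 to 1.07). None of the 10 members was past 1.5-fold, where 22.6% of all genes were. The median of all genes moved by 0.13 on the log2 scale under median of ratios scaling. In T cell-like cells B2m was 2895 and 2305 CPM, a ratio of 0.796 (0.738 to 0.859), beside 1.03 for H2-K1 and 1.04 for H2-D1. None of the 5 measured members was past 1.5-fold there, where 18.1% of all genes were. In fibroblast-like cells Cd74 was past 1.5-fold and higher (ratio 1.92, 1.57 to 2.37) and H2-Aa, at 0.659 (0.506 to 0.860), was past it and lower, out of 8 measured members. Of all genes there, 17.8% were past it, 6.69% higher and 11.2% lower. In the wildtype, 68.5% of H2-Aa UMIs came from 3 cells.

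**Figure D4:**
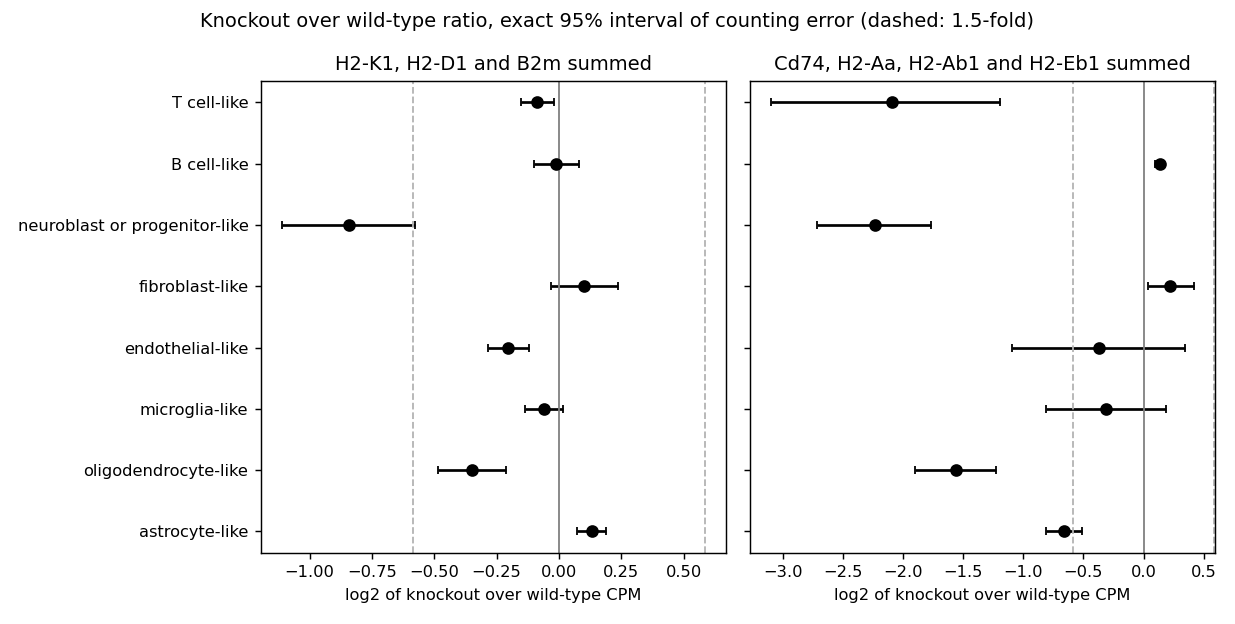
Knockout over wildtype ratio on the log2 scale of the class I sum (left) and the class II sum (right) in the 8 compared classes, with exact 95% intervals of counting error; dashed lines mark 1.5-fold. Class I ratios lie between -0.84 and 0.13, and the lowest class II ratios are those of neuroblast or progenitor-like, T cell-like and oligodendrocyte-like cells, which hold few class II UMIs.

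Other genes of the pathway were listed beside the members. In microglia-like cells, 2 of 14 measured class II processing genes were past 1.5-fold and higher, as were 5.83% of all genes: Ifi30, a lysosomal thiol reductase, at 184 and 292 CPM, and Nfyb, a Y box binding subunit, at 26.3 and 42.8 CPM. Ctss, a cathepsin of invariant chain cleavage, was 5075 and 5085 CPM there. In astrocyte-like cells 1 of 12 was past it and lower, Ctss at 8.21 and 5.22 CPM, near the 9.53% of all genes. In oligodendrocyte-like cells 2 of 12 were past it and lower, against 5.33% of all genes: March1, a ubiquitin ligase that removes class II from the surface, at 43.8 and 27.5 CPM, and Rfx5, an X box binding factor, at 4.65 and 3.09 CPM. None of the 11 measured genes of class I peptide supply was past 1.5-fold in microglia-like or in astrocyte-like cells, where 13.3% and 12.0% of all genes were. By any amount, 10 of the 11 were higher in knockout microglia-like cells, against 3333 of all 6916 genes. In astrocyte-like cells 8 of the 11 were, against 5294 of 13357. Irf1, a regulator of class I genes, was 74.1 and 30.8 CPM in B cell-like cells. There, 2 of 6 measured interferon-gamma signalling genes were past 1.5-fold and lower, against 489 of all 2633 genes. In neuroblast or progenitor-like cells 1 of 7 measured class I peptide supply genes was past it and lower, Psmb8 at 14.5 and 0.830 CPM. Of 4 measured other class I and class I-like genes 3 were, among them H2-T23 at 16.9 and 3.53 CPM, where 8.76% of all genes were. Whether few wildtype cells carried these UMIs was not tested. The lists were chosen with earlier results of these data known.

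Across the 16 points of class and library with at least 50 cells, the genes whose level followed H2-K1 most closely, by Pearson correlation of log2(CPM + 10) and among 11754 candidates, were Nmi (0.974), Shisa5 (0.967), Psmb9 (0.952), Elf1 (0.951) and Trim12a (0.949). For Cd74 they were Serp1 (0.957), Iglc3 (0.929), Iglc2 (0.928), Siglecg (0.925) and Ly6d (0.924). The 16 points share 2 libraries and 8 classes, so these values describe the classes and carry no test. Iglc2, Iglc3 and Ly6d are genes of the B lineage, and B cell-like cells held the highest Cd74 level among the 8 classes.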

How the data were processed

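The values deposited by the authors are raw UMI counts, 1 table per library, not normalized. Cell Ranger 4.0.0 is named per the file headers. mm10, Seurat 3.0 and R 4.0.3 come from the submitters' processing notes. Which annotation release was used is not given in the sources. Gene positions were taken from GENCODE M21 (GRCm38) by gene identifier, which matched 32235 of 32285 genes (99.8%).

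The filter asked for 500 or more genes and no more than 20% mitochondrial UMIs in a cell, which removed 1998 wildtype (27.9%) and 1702 knockout (18.5%) barcodes. Scrublet's automatic threshold marked 0 and 164 cells, so the highest scores were removed at 0.8% per 1000 cells, 212 and 448 cells. A cell joined a class when its summed marker CPM reached 15% of the median of the 20 highest cells of that class, was at least 2 times the next class and came from at least 3 markers. Markers covered 18 cell types. An earlier gate on the share of markers detected was tried at 4 threshold pairs and dropped because it left almost no dendritic cells or macrophages. The gate used was 1 of 4 threshold pairs tried, and it was settled with member levels by class in view. The members and lists were chosen with earlier results of these data known.

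UMIs were summed per class and library and scaled to CPM. Levels have exact Poisson, ratios exact conditional binomial and shares exact Clopper-Pearson 95% intervals, which cover counting error only. Shares used cells thinned to 2000 UMIs, and shallower cells were left out. Genes with at least 50 UMIs over both libraries in a class were measured. Beside the members, each list could be named by its 3 most abundant members per class and by up to 4 past 1.5-fold with at least 50 CPM, and the 5 genes most like H2-K1 and Cd74 were named among those with at least 500 UMIs; a few others are named with their values where they were the members past 1.5-fold. Ratio intervals were tested on simulated data. Subsets by Gfap, Klk6, Ccl3 and Ccl4, the clusters within astrocyte-like cells, the 1000 CPM limit, the 10 UMI limit and the motifs were chosen after the data were seen. Alternatives covered the cell filter, doublets, classes, gate, weighting, thinning and scaling. The tools were scanpy 1.11.5, leidenalg 0.10.2, scikit-learn 1.9.0, biopython 1.88 and matplotlib 3.10.9, on scipy 1.17.1, pandas 2.3.3 and numpy 2.4.6 (Python 3.11.15).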

Additional observations from a re-analysis of the deposited data

Results flagged for a closer look

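Cells that the gates gave no class carried a class II signal outside the compared classes. Their class II sum was 3707 CPM in the wildtype and 5385 CPM in the knockout library, above the 32.7 and 20.7 CPM of astrocyte-like cells, and they held 41.8% and 34.8% of all class II UMIs of the kept cells. At or above 1000 CPM there were 241 such wildtype and 76 such knockout cells, whose median depths were 1160 and 6418 UMIs. Among those cells, the summed astrocyte markers had a median of 8464 CPM in the wildtype and 492 CPM in the knockout library. The summed microglia markers had 1067 and 1090 CPM and the monocyte markers 0 and 1389 CPM. Dendritic cell markers had 0 and 202 CPM and B cell markers 0 and 115 CPM. The class with the highest marker score was astrocyte in 113 wildtype and 6 knockout cells and microglia in 20 and 17. It was B cell in 19 and 20, monocyte in 8 and 15 and dendritic cell in 3 and 7.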

How the results depend on the processing

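Values are log2 ratios of knockout over wildtype unless a percentage or a count is named. The class I ratio of astrocyte-like cells (0.13) was 0.20 with clusters in place of marker gates, -0.26 with each cell weighed the same and 0.25 with median of ratios scaling. That of oligodendrocyte-like cells (-0.35) was -0.092 with no filter on cells, -0.081 with doublets kept and -0.81 with each cell weighed the same. That of microglia-like cells stayed within its interval under all 9 alternatives applied to it. The class II ratio of astrocyte-like cells (-0.66) was -0.16 with no filter, -0.21 with a stricter filter, -0.011 with doublets kept, -0.28 with clusters, -2.42 with each cell weighed the same and -1.0 after thinning. That of oligodendrocyte-like cells (-1.56) was -0.46 with no filter, -0.61 with a stricter filter, -0.40 with doublets kept, -0.15 with clusters, -0.86 with a stricter gate, -3.69 with each cell weighed the same and -0.97 without the 3 cells with the most class II UMIs in each library, an alternative chosen after seeing the data. That of microglia-like cells (-0.31) was -0.93 with no filter. That of B cell-like cells (0.13) was 0.076 after thinning, 0.27 with median of ratios scaling and 0.24 without mitochondrial, hemoglobin and ribosomal protein genes in the total. Without thinning, the share of microglia-like cells with a class II UMI was 22.3% and 19.2% in place of 10.5% and 7.92%, and with clusters the share of knockout B cell-like cells was 100% in place of 98.6%. Of the listed pathway genes, members included, 5 of 52 were past 1.5-fold in astrocyte-like cells (12.0% of all genes), and 9 of 60 with at least 20 UMIs. In oligodendrocyte-like cells there were 10 of 33 (7.72% of all genes), and 4 of 25 with at least 100 UMIs. In microglia-like cells there were 5 of 48 (13.3% of all genes), with 8 of 56 at 20 UMIs and 2 of 37 at 100 UMIs.

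Among values past 1.5-fold, those that changed sign were the class II ratio (1.99) and the Cd74 ratio (1.75) of neuroblast or progenitor-like cells with clusters, their B2m ratio after thinning (0.28), and, in oligodendrocyte-like cells, H2-Aa (0.090), H2-Ab1 (0.16) and H2-Eb1 (0.70) with clusters and H2-Ab1 with a stricter gate (0.22). The causes were not tested. Values under 1.5-fold also changed sign, among them the class I ratio of astrocyte-like cells given above. Of the 81 values of main results under an alternative, 51 stayed the same and 30 moved. Of 589 values of other results, 495 stayed the same, 87 moved and 7 were the reversals listed.

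No paired analysis was possible because each genotype has 1 library. Counting intervals do not hold the spread between mice or libraries. Class II ratios in neural classes rest on 797 and 733 UMIs in astrocyte-like cells and 267 and 103 in oligodendrocyte-like cells. Their counting intervals exclude 1, but the ratios move with the choice of cells. The wildtype library left more cells without a class, and those cells were shallow.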

Other observations

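Class II UMIs were divided differently among the classes of the libraries. B cell-like cells held 32.1% of the class II UMIs of kept wildtype cells and 14.8% of those of kept knockout cells, dendritic cell-like cells 16.7% and 33.3%, and monocyte-like cells 0.371% and 8.24%. Cell numbers differed as well, with 6 and 29 dendritic cell-like and 11 and 71 monocyte-like cells, so the level in all kept cells, 953 and 1095 CPM, mixes level and cell number. Barcodes that the filter removed held class II at 146 CPM in the wildtype and 44.9 CPM in the knockout library.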
